A study of Homo sapiens with 6 samples.

Results

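The genes described here encode the cargo of dense-core secretory granules and the enzymes that mature it: the granins and granin-like proteins CHGA, CHGB, SCG2, SCG3, SCG5 and VGF, the prohormone convertases PCSK1 and PCSK2, the carboxypeptidase CPE, and the prohormone gene CALCA. They are 10 of the 58735 genes in a gene count table of H1155 cells and were taken from it by gene symbol. The list was chosen with earlier results of these data known. H1155 is a lung cancer cell line labelled as a neuroendocrine large cell lung cancer, and 3 libraries of untreated cells labelled WT were compared with 3 labelled GFI1-KO. All were grown in DMEM with serum, and the edited cells had received Cas9 with a pair of guides aimed at the promoter region of GFI1, a zinc finger repressor, and were sorted by GFP into single-cell clones. How many clones stand behind the 3 libraries labelled GFI1-KO is not given in the sources used here, so clone and genotype cannot be told apart. Nothing in the labels says that the replicates were separate cultures, and the p-values measure the spread between these libraries, which may be technical.

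Dense-core granules form at the trans-Golgi network, where granins aggregate with prohormones and help to sort them into the budding vesicle. Inside the granule, PCSK1 and PCSK2 cleave prohormones after pairs of basic residues, and CPE trims the basic residues that the cleavage leaves behind. Chromogranin A is a common serum and tissue marker of neuroendocrine tumours, and CALCA encodes calcitonin and the calcitonin gene-related peptide, a product of pulmonary neuroendocrine cells. Several of these genes are textbook targets of CREB, which binds the cyclic AMP response element, or CRE.

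The targeted gene went against its label. GFI1 (ENSG00000162676, chromosome 1, 92474762 to 92486876, minus strand, hg38) had 153, 106 and 125 counts in the WT-labelled libraries and 174, 188 and 170 in those labelled GFI1-KO. The ranges did not overlap, and the mean normalized count was 135 ± 19.9 (SD, n = 3) against 168 ± 9.28 (SD, n = 3), with a log2 fold change of 0.31 (SE 0.12, adjusted p = 0.027, edgeR). The call was lost with DESeq2 (adjusted p = 0.072), with the GC and length correction described next (log2 fold change 0.17, adjusted p = 0.239) and without WT replicate 2, WT replicate 3 or GFI1-KO replicate 2 (log2 fold change 0.21, 0.28 and 0.27). A gene count does not show an altered promoter or a truncated protein, and the directions below are those between libraries as labelled. The paper reports deletion of GFI1 in H1155 cells with an immunoblot of the protein, and protein was not measured here. A log2 fold change is GFI1-KO over WT throughout, and a normalized count is a count scaled to the mean TMM effective library size.

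Total counts per library lay between 14882914 and 17692882. Of 17514 genes tested with edgeR, 72.4% passed an adjusted p of at most 0.05, with 36.5% higher and 35.9% lower in the GFI1-KO-labelled libraries, and the median log2 fold change over all tested genes was 0.00. Across genes, the log2 fold change increased with the GC content of the transcript (Spearman's correlation 0.574, genes not being independent replicates). When each library was corrected for GC content and length, 60.8% of 17415 genes passed, with 32.6% higher and 28.2% lower, and that correlation was 9.97e-05. With the correction and the replicate number as a block together, 60.2% passed. Whether the GC trend is technical was not tested, and corrected values are given beside named genes whose call or direction they change or whose value they move by over 1.5 times. In bulk RNA, fewer cells of a type and less RNA per cell cannot be told apart. Of 10 neuroendocrine markers, GRP had at most 3 counts in every library. The list holds none of the 10 genes described here. Its summed level was 1981 to 2025 CPM in the WT-labelled libraries and 2438 to 2471 CPM in those labelled GFI1-KO. Of the 9 tested markers, 5 were higher and 4 lower, and with the correction 3 were higher and 5 lower. SYP rose from a mean normalized count of 4221 to 9759 and NCAM1 from 1897 to 4112, whereas DDC fell from 237 to 24.6. ENO2 and UCHL1 were called higher without the correction and lower with it. Of the other cell types that could be present, fibroblast markers summed to 191 to 196 CPM in the WT-labelled libraries against 134 to 139 CPM with DCN at 3 counts or fewer, endothelial markers to 27.0 to 30.4 CPM against 13.3 to 14.9 CPM with VWF and KDR at 3 counts or fewer, and haematopoietic markers to 0.191 to 0.403 CPM against 0.343 to 0.791 CPM with PTPRC, CD3E and CD14 at 3 counts or fewer. Of 5 tested fibroblast markers 2 were higher and 3 lower, with COL3A1 at a mean normalized count of 2.49 against 139, PDGFRA at 1.08 against 14.8, PDGFRB at 141 against 14.8 and COL1A2, most of the sum, at 2912 against 2008. The log2 fold change of COL1A2 was -0.54, or -0.13 with the correction. Epithelial markers summed to 205 to 217 CPM against 239 to 263 CPM with KRT19 at 3 counts or fewer, but only KRT8 of the 4 tested was higher, at 2277 against 3105. The log2 fold change of KRT8 was 0.45, or 0.13 with the correction. EPCAM at 66.9 against 14.2 and CDH1 at 27.0 against 5.39 were lower, and KRT18 was called lower with the correction alone. Basal markers summed to 0.806 to 0.956 CPM against 0 to 0.571 CPM. Alveolar and club cell markers summed to 12.1 to 14.2 CPM against 11.1 to 13.9 CPM. Of these, SFTPB, SFTPC and SCGB1A1 had 3 counts or fewer, and NAPSA had at most 16. SFTPA1, the only 1 tested, had a mean normalized count of 208 against 202 and was called lower with the correction alone, at -0.28. The part of these markers in the results was not tested.

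The CRE was searched for in the RefSeq promoter windows of these genes. Windows held 250 bases before and 50 after each RefSeq start site on GRCh38.p14, and 8 of the 10 genes had at least 1 window, 10 windows in all. SCG2 and CHGB had no window and were not searched. The full CRE, TGACGTCA, was present in 1.84% of 34943 windows of the same length and in a window of CHGA, VGF and PCSK1. The 250 bases before the start are shown for these, 5′ to 3′ on the gene's strand, with the CRE in capitals. They lie at chr14:92922900-92923149 on the plus strand (CHGA), chr7:101165570-101165819 on the minus strand (VGF) and chr5:96433249-96433498 on the minus strand (PCSK1, the second of its windows).
CHGA: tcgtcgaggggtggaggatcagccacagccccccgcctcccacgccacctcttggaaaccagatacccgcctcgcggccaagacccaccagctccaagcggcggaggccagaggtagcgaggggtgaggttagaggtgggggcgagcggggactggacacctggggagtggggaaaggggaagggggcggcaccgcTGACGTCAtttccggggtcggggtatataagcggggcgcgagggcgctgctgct
VGF: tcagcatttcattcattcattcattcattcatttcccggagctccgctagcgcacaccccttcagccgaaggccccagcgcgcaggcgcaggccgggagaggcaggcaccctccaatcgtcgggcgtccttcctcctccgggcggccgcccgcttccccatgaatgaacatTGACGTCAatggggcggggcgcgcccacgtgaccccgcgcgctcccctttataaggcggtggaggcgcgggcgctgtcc
PCSK1: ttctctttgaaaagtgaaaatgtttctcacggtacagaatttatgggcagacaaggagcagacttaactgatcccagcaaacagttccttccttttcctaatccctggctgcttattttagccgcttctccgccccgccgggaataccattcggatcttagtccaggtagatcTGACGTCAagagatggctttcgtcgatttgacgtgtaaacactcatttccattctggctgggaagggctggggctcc
The first base of the CRE stood 54 bases before the start in CHGA, 79 in VGF and 77 in PCSK1. The shorter element TGACG, searched on both strands and contained on each strand in the full CRE, was in 24.5% of all windows. It was in 9 of the 10 windows of these genes, with a match for each of the 8. The start site of the printed PCSK1 window lay 895 bases from the deposited 5′ end of the gene, and that of the CPE window 17814 bases. Whether these start sites are used in H1155 cells was not tested. The E-box CAGCTG was in 17.9% of all windows and in 1 window each of SCG3 and PCSK1. AAATCA, part of the core that GFI1 is known to bind, was in 13.2% of all windows and in none of these genes' windows. Both are matches to letters, also searched on both strands, and not sites of binding. CREB1, which encodes CREB, had a mean normalized count of 1696 ± 17.1 (SD, n = 3) in the WT-labelled libraries and 1517 ± 37.5 (SD, n = 3) in those labelled GFI1-KO, a log2 fold change of -0.16 (SE 0.04, adjusted p = 0.0011, edgeR) that was 0.50 with the GC and length correction (adjusted p = 6.4e-11). Of the genes with a full CRE in the window, CHGA and VGF were higher and PCSK1 was lower in the GFI1-KO-labelled libraries before the correction. With it VGF was called lower, at -0.44, and CHGA and PCSK1 were not called. The part of CREB in these changes was not tested.

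All 10 genes had a count in at least 1 library, and 8 passed the filter on low counts. Of these 8, 5 were higher in the GFI1-KO-labelled libraries (SCG2, CHGA, CHGB, SCG5 and VGF) and 3 were lower (SCG3, PCSK1 and CPE), beside 72.4% called over all tested genes, and CHGA, VGF and PCSK1 had the other sign with the GC and length correction. In normalized counts the groups were apart for all 8, as they were for 74.4% of all tested genes. The median log2 fold change of the 8 was 0.53. With the GC and length correction 3 were higher (SCG2, CHGB and SCG5) and 2 were lower (SCG3 and VGF). Over all genes fitted with it, 32.6% were higher and 28.2% lower. Of the 8, 3 did not pass (CHGA, PCSK1 and CPE), and the median of the 8 was -0.0061. Only for SCG2, CHGB, SCG5 and SCG3, among the 8, did both fits give a call in the same direction, and the corrected fit with the block gave the same counts of 3 higher and 2 lower.

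**Figure D1:**
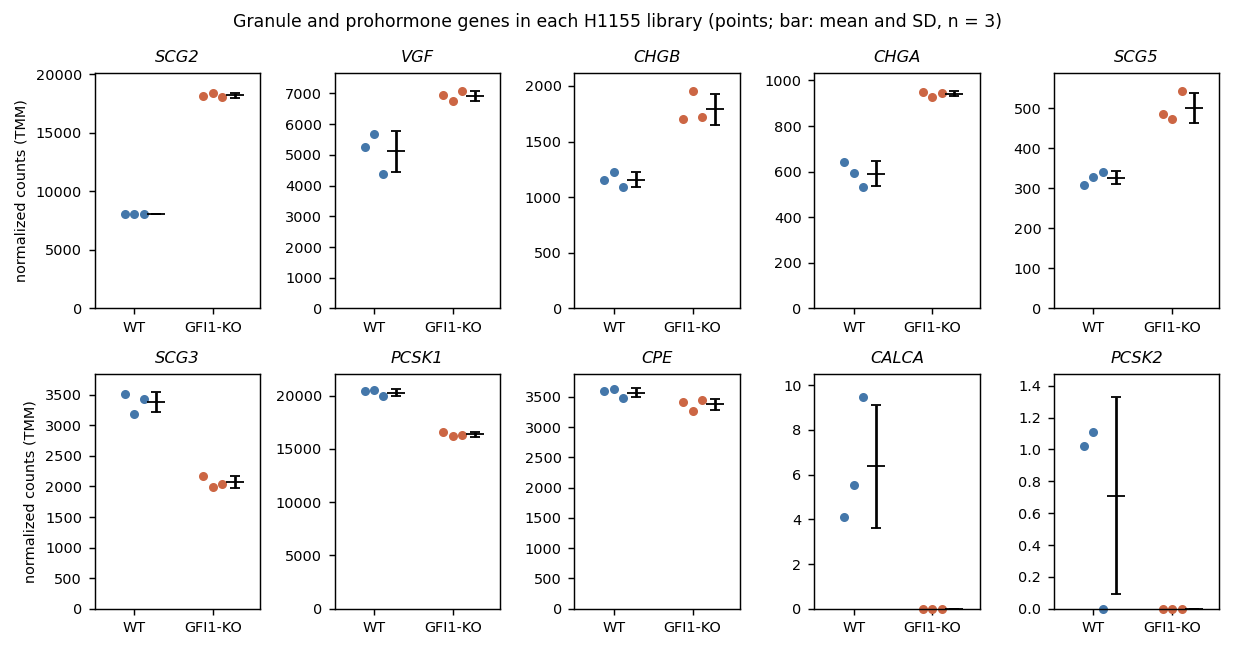
Normalized counts of the 10 genes in each library, 1 panel a gene with its own linear axis from 0; points are libraries, bars are the mean and SD of the 3 libraries labelled WT or GFI1-KO. The groups did not overlap in any of the 8 tested genes, and CALCA and PCSK2 had no count in the GFI1-KO-labelled libraries.

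Secretogranin II, encoded by SCG2, is a granin whose cleavage gives the neuropeptide secretoneurin, and its RNA changed by the largest fold of the 8 tested genes. SCG2 (ENSG00000171951, chromosome 2, 223596940 to 223602503, minus strand) had normalized counts of 8101, 8079 and 8100 in the WT-labelled libraries and 18126, 18448 and 18057 in those labelled GFI1-KO. The WT values were within a narrow band and all of the GFI1-KO values were above it. The means were 8093 ± 12.6 and 18210 ± 208 (SD, n = 3 each), a 2.25-fold difference, with a log2 fold change of 1.17 (SE 0.03, adjusted p = 1.7e-21, edgeR). The GC and length correction gave 1.40. Genes with a transcript GC content from 40 to 45%, the bin of SCG2, had a median log2 fold change of -0.30.

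The chromogranins, acidic proteins that bind calcium and aggregate in the granule, were both higher in the GFI1-KO-labelled libraries, although the increase of CHGA was lost and its sign turned with the GC and length correction. CHGA (ENSG00000100604, chromosome 14, 92923080 to 92935293, plus strand) had normalized counts of 643, 596 and 534 against 951, 930 and 944. The GFI1-KO values lay close together and above all of the WT values. The means of 591 ± 54.5 and 942 ± 10.9 (SD, n = 3 each) gave a log2 fold change of 0.67 (SE 0.06, adjusted p = 2.6e-10, edgeR), which was -0.02 with the correction (adjusted p = 0.827). Its transcript has a GC content of 62.2%, and the median log2 fold change of genes between 60 and 65% was 0.67. CHGB (ENSG00000089199, chromosome 20, 5911430 to 5925361, plus strand) had normalized counts of 1159, 1224 and 1094 against 1699, 1952 and 1718. Library 2 was the highest in each group, and the groups did not overlap. The log2 fold change was 0.63 (SE 0.05, adjusted p = 4.6e-11, edgeR), with means of 1159 ± 65.3 and 1790 ± 141 (SD, n = 3 each), and 0.51 with the correction (adjusted p = 4.25e-09), at a transcript GC content of 51.4%.

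VGF, a granin-like protein that yields several neuropeptides and is induced by nerve growth factor, was called in opposite directions by the fits. VGF (ENSG00000128564, chromosome 7, 101162509 to 101165593, minus strand) had normalized counts of 5267, 5683 and 4386 in the WT-labelled libraries and 6960, 6754 and 7073 in those labelled GFI1-KO. The WT libraries were more spread, with library 3 the lowest, and lay below all of the others. The means of 5112 ± 662 and 6929 ± 162 (SD, n = 3 each) gave a log2 fold change of 0.44 (SE 0.05, adjusted p = 4.4e-08, edgeR). With the GC and length correction it was -0.44 (adjusted p = 5.1e-11). Of the genes fitted both ways, 7.57% were called in opposite directions. The VGF transcript has the highest GC content of the 8, 70.5%, and genes above 65% had a median log2 fold change of 0.81.

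SCG5 and SCG3 encode granule proteins with other tasks. The SCG5 product, 7B2, is the chaperone that PCSK2 needs to mature, and the SCG3 product binds cholesterol-rich granule membrane and chromogranin A. SCG5 (ENSG00000166922, chromosome 15, 32641676 to 32697098, plus strand) had normalized counts of 308, 329 and 340 against 484, 474 and 542, with no overlap. The log2 fold change was 0.62 (SE 0.08, adjusted p = 5.6e-08, edgeR), with means of 326 ± 16.2 and 500 ± 36.8 (SD, n = 3 each), and 0.64 with the correction. Its counts are uncertain, since 48.4% of its 50-base words are shared with the readthrough gene ARHGAP11A-SCG5. ARHGAP11A itself, a GTPase-activating protein gene upstream of it, had a log2 fold change of -0.42 (SE 0.03, adjusted p = 1.6e-11, edgeR), which was 0.06 and not called with the correction.

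SCG3 was the only 1 of the 6 granins lower without the GC and length correction, with which VGF was called lower too. SCG3 (ENSG00000104112, chromosome 15, 51681353 to 51721031, plus strand) had normalized counts of 3517, 3191 and 3432 in the WT-labelled libraries and 2178, 1994 and 2044 in those labelled GFI1-KO. Every GFI1-KO value was below every WT value. The means were 3380 ± 169 and 2072 ± 95.4 (SD, n = 3 each), and the log2 fold change of -0.71 (SE 0.04, adjusted p = 2.7e-14, edgeR) became -0.38 with the correction (adjusted p = 3.9e-09). At 40.9%, its transcript had the lowest GC content of the 8, close to the 42.5% of SCG2, which was higher in the GFI1-KO-labelled libraries.

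The processing enzymes changed less. PCSK1 (ENSG00000175426, chromosome 5, 96390415 to 96434143, minus strand) encodes the convertase PC1/3, and its normalized counts were 20457, 20488 and 19928 against 16610, 16206 and 16271. The GFI1-KO libraries were lower, without overlap. The means of 20291 ± 315 and 16362 ± 217 (SD, n = 3 each) gave a log2 fold change of -0.31 (SE 0.03, adjusted p = 7.1e-10, edgeR), which was 0.00 with the GC and length correction (adjusted p = 0.998). CPE (ENSG00000109472, chromosome 4, 165361194 to 165498320, plus strand) had normalized counts of 3593, 3628 and 3479 against 3410, 3262 and 3445. The lowest WT library lay just above the highest of the others. The log2 fold change of CPE was -0.08 (SE 0.03, adjusted p = 0.041, edgeR), with means of 3567 ± 77.5 and 3373 ± 97.5 (SD, n = 3 each). This call was lost with DESeq2 (adjusted p = 0.054), which called 67.1% of all tested genes, and with a block for the replicate number (adjusted p = 0.052), where 71.8% were called. It was also lost with the correction (log2 fold change -0.012, adjusted p = 0.765). With no filter, where 38.6% of genes were called, it was lost as well (log2 fold change -0.068, adjusted p = 0.146, edgeR). The call was lost too without GFI1-KO replicate 1, 2 or 3 or WT replicate 1 or 2, with a log2 fold change of -0.09, -0.05, -0.09, -0.08 and -0.08 in that order.

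**Figure D2:**
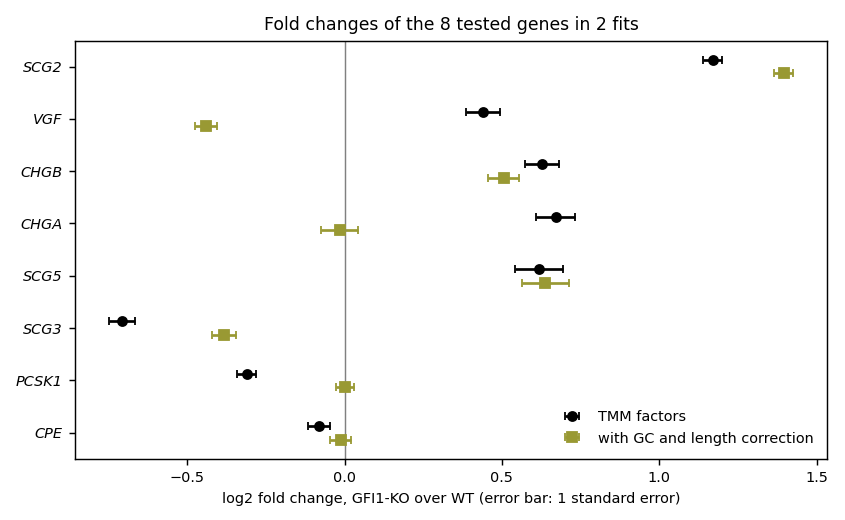
Log2 fold change (GFI1-KO over WT, vertical line at 0) of the 8 tested genes, as circles with TMM factors and as squares with the GC and length correction, with error bars of 1 SE. In both fits SCG2, CHGB and SCG5 were above 0 and SCG3 below it, while VGF moved from 0.44 to -0.44, CHGA from 0.67 to -0.02 and PCSK1 from -0.31 to 0.00.

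The prohormone gene itself was near the limit of detection. CALCA (ENSG00000110680, chromosome 11, 14966668 to 14972354, minus strand) had 4, 5 and 9 counts in the WT-labelled libraries and 0 in each labelled GFI1-KO. All of the WT libraries were above the floor of 3 counts and none of the others had a read. Against that floor per library, the level was at least 2.24-fold lower in the GFI1-KO-labelled libraries. Over the group, 18 counts have a 95% exact Poisson interval of 10.7 to 28.4, and a sum of 0 has an upper bound of 3.69, for counting error only. CALCA did not pass the filter on low counts. In the fit with no filter its adjusted p was 2.5e-04 (edgeR), beside 38.6% of 34356 genes called, with 18.9% called lower. The gene overlaps CALCB on the opposite strand in the deposited coordinates, and since the strand setting is not given, reads from the overlap cannot be assigned. CALCB, which encodes the second calcitonin gene-related peptide, had mean normalized counts of 36.6 ± 11.4 and 13.9 ± 2.43 (SD, n = 3 each) and a log2 fold change of -1.39 (SE 0.31, adjusted p = 3.1e-04, edgeR).

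PCSK2 (ENSG00000125851, chromosome 20, 17226107 to 17484578, plus strand), which encodes the convertase PC2, had 1, 1 and 0 counts in the WT-labelled libraries and 0 in each of the others. Both groups were at or under the floor, so no fold is given, and PCSK2 was not detectable at this depth. SCG5, the gene of its chaperone, had 297 to 576 counts in the same libraries.

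Levels can be compared between genes per length, as counts per length of the gene and total of the library (FPKM). In the WT-labelled libraries, the mean FPKM was 232 for PCSK1, 181 for SCG2, 115 for VGF, 73.2 for CPE, 61.9 for SCG3, 15.5 for CHGB, 11.6 for CHGA, 9.0 for SCG5 and 0.181 for CALCA. In those labelled GFI1-KO it was 402 for SCG2, 185 for PCSK1, 154 for VGF, 68.4 for CPE, 37.5 for SCG3, 23.7 for CHGB, 18.2 for CHGA and 13.7 for SCG5. In each group the ranges of neighbours in this order did not overlap, except for PCSK2 and CALCA at 0 in the GFI1-KO-labelled libraries. The order changed at the top, where PCSK1 and SCG2 exchanged places, and nowhere else among the 8 tested genes. CHGA, the usual marker gene, ranked below CHGB and above SCG5 in both groups.

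The 10 genes together took 0.251 to 0.262% of all counts in the WT-labelled libraries and 0.300 to 0.302% in those labelled GFI1-KO. The higher share was not a rise of each gene. SCG2 rose the most, from a mean normalized count of 8093 to 18210, and VGF, CHGB, CHGA and SCG5 rose by fewer counts. PCSK1 fell from 20291 to 16362 and SCG3 from 3380 to 2072, and CPE, CALCA and PCSK2 were lower too. Of their summed FPKM, SCG2 took 25.9% ± 0.765 against 44.5% ± 0.627, PCSK1 took 33.2% ± 0.432 against 20.5% ± 0.212, and SCG3 took 8.86% ± 0.582 against 4.16% ± 0.178 (SD, n = 3 each). SCG2, SCG3 and PCSK1 have transcripts of like GC content, 40.9 to 42.8%. The FPKM ratio of SCG2 to SCG3 was 2.81, 3.09 and 2.88 in the WT-labelled libraries and 10.1, 11.3 and 10.8 in those labelled GFI1-KO. The ratio of SCG2 to PCSK1 was 0.773, 0.770 and 0.793 against 2.13, 2.22 and 2.17. Neither ratio overlapped between the groups, and an exact two-sided permutation test gave p = 0.1 for each, the smallest that 3 libraries against 3 allow. The ratio of CHGA to CHGB was 0.745 ± 0.0568 against 0.773 ± 0.0666 (SD, n = 3 each) and overlapped (exact permutation p = 0.9). The ratio of PCSK1 to CPE, the convertase and the carboxypeptidase that acts after it, was 3.17 ± 0.0222 against 2.71 ± 0.0690 (SD, n = 3 each) and did not overlap (exact permutation p = 0.1). SCG5 relative to PCSK1 was 0.0388 ± 0.00242 against 0.0739 ± 0.00576 (SD, n = 3 each), also without overlap (exact permutation p = 0.1). These ratios are without the GC and length correction. In log2 fold changes, the difference between SCG2 and SCG3 was 1.88 without and 1.78 with it, that between SCG2 and PCSK1 was 1.48 and 1.40, and that between SCG5 and PCSK1 was 0.93 and 0.64. The difference between PCSK1 and CPE was -0.23 without and 0.013 with the correction, and that between CHGA and CHGB was 0.04 without and -0.52 with it.

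**Figure D3:**
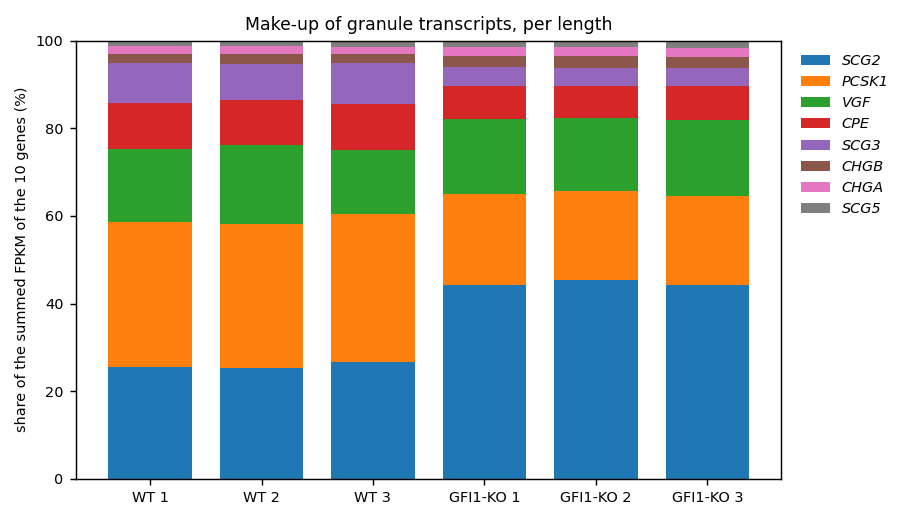
Share of the summed FPKM of the 10 genes taken by each, in percent, as 1 stacked bar from 0 for each library, with 8 genes in colour (CALCA and PCSK2 are too low to be seen). SCG2 took 25.9% on average in the WT-labelled libraries and 44.5% in those labelled GFI1-KO, and PCSK1 took 33.2% and 20.5%.

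**Figure D4:**
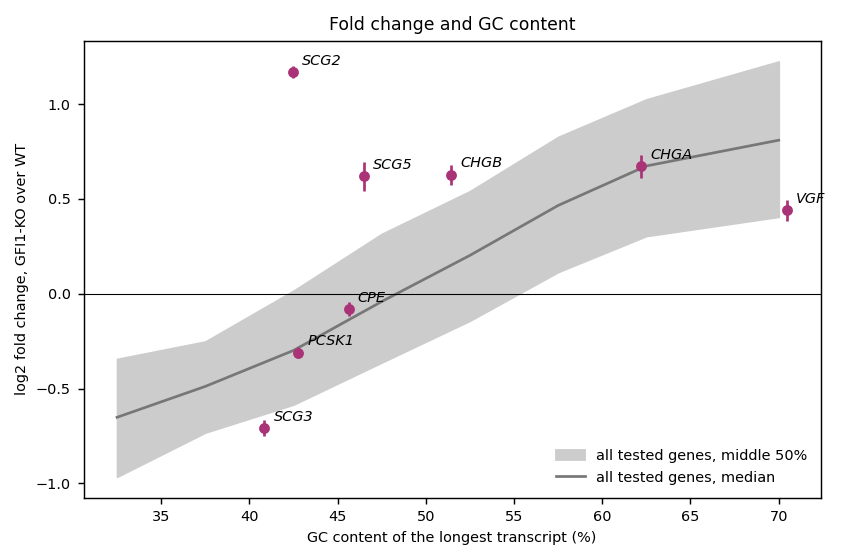
Log2 fold change (GFI1-KO over WT, without the GC and length correction) against transcript GC content in percent; the line and band are the median and quartiles of all tested genes in 8 bins, drawn at the middle of each bin (the outer bins near their inner edge), and the named points are the 8 tested genes with their SE. SCG2 stood above the quartile band of its bin and VGF below the median of its bin, 0.44 against 0.81.

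Other convertases and processing enzymes were mostly higher: of 19 listed genes 13 were tested, 10 were higher and 2 lower at a median of 0.24 on the log2 scale, beside 36.5% and 35.9% of all tested genes. With the GC and length correction there were 6 higher, all of them called higher before, and 2 lower, at a median of 0.27. Of these 2, 1 was lower before and 1 higher before. Over all genes, 32.6% were higher and 28.2% lower with the correction. FURIN, the convertase of the constitutive pathway, had means of 686 ± 24.1 and 1269 ± 65.7 (SD, n = 3 each) and a log2 fold change of 0.89 (SE 0.05, adjusted p = 7.5e-14, edgeR), or 0.29 with the correction. CTSL, the protease cathepsin L, rose by 0.95 on the log2 scale (SE 0.07, adjusted p = 8.9e-13, edgeR). QPCT, which caps peptides with pyroglutamate, had a log2 fold change of -0.45, and CPD, the carboxypeptidase of the trans-Golgi network, had -0.39, which was 0.08 and not called with the correction. PCSK1N, whose product proSAAS inhibits PCSK1, had means of 671 ± 88.7 and 1204 ± 35.6 (SD, n = 3 each) and a log2 fold change of 0.85 (SE 0.07, adjusted p = 1e-11, edgeR). With the correction it was -0.10 (adjusted p = 0.08).

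Genes of granule biogenesis, transport and membrane changed both ways, with 11 higher and 13 lower of 27 tested among 29 listed and a median log2 fold change of -0.04, beside 36.5% higher and 35.9% lower over all tested genes. The corrected fit called 8 higher and 11 lower at a median of 0.05, beside 32.6% and 28.2% over all genes. In both fits 5 were higher and 8 lower, and 4 were called in opposite directions (CCDC186, RAB2A, RAB27A and VPS51). CADPS, a priming factor for granule exocytosis, had a mean normalized count of 1041 ± 27.4 in the WT-labelled libraries and 122 ± 6.26 in those labelled GFI1-KO (SD, n = 3 each), a log2 fold change of -3.10 (SE 0.07, adjusted p = 3e-22, edgeR). ICA1L, a relative of the islet autoantigen ICA1, fell by 1.28 on the log2 scale (SE 0.07, adjusted p = 5.9e-15, edgeR). RAB27B, a small GTPase that brings granules to the plasma membrane, was higher, 45.5 ± 3.23 against 226 ± 28.4 (SD, n = 3 each), with a log2 fold change of 2.31 (SE 0.15, adjusted p = 1.5e-13, edgeR). PTPRN, the granule membrane protein IA-2, had 0.88 (SE 0.04, adjusted p = 2.6e-17, edgeR), or 0.54 with the correction.

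Of 64 other prohormone and neuropeptide genes only 19 passed the filter, 7 of them higher and 8 lower at a median of -0.24 on the log2 scale, shares near the 36.5% and 35.9% of all tested genes. The correction gave 6 higher and 9 lower at a median of -0.11, beside 32.6% and 28.2% over all genes. PENK, the proenkephalin gene, had means of 218 ± 15.7 and 543 ± 15.6 (SD, n = 3 each) and a log2 fold change of 1.31 (SE 0.08, adjusted p = 4.6e-14, edgeR). NMB, which encodes neuromedin B, had 1.21 (SE 0.10, adjusted p = 5.3e-11, edgeR), or 0.41 with the correction. ADCYAP1, which encodes the peptide PACAP, was lower, 2171 ± 93.5 against 1126 ± 29.1 (SD, n = 3 each), with a log2 fold change of -0.95 (SE 0.04, adjusted p = 2.4e-16, edgeR), and NMU, the neuromedin U gene, had -0.66 (SE 0.09, adjusted p = 1.3e-07, edgeR). Of 5 genes for receptors of the calcitonin peptides and their accessory proteins, 2 were tested. RAMP1, which makes the calcitonin receptor-like receptor a receptor for the CALCA peptide, had a log2 fold change of 0.90 (adjusted p = 0.021, edgeR) at means of 11.3 ± 1.84 and 21.2 ± 1.09 (SD, n = 3 each), and 0.11 with the correction, where it was not called. The call of RAMP1 was also lost with DESeq2 (adjusted p = 0.074) and without GFI1-KO replicate 1, GFI1-KO replicate 3 or WT replicate 1 (log2 fold change 0.87, 0.88 and 0.76). RAMP2, the partner for adrenomedullin, had 0.02 (adjusted p = 0.9, edgeR), and -0.52 with the correction (adjusted p = 1.4e-04).

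Transcription factors and other regulators of neuroendocrine genes were described with 21 genes, of which 19 were tested and all 19 called, beside 72.4% of all tested genes. There were 6 called higher and 13 called lower, beside 36.5% and 35.9%, at a median log2 fold change of -0.35. The corrected fit called 5 higher and 12 lower at a median of -0.36, beside 32.6% and 28.2% over all genes. In both fits 4 were higher and 10 lower. NEUROG3, an endocrine proneural factor, had 63 counts in the WT-labelled libraries and 3 in those labelled GFI1-KO. Per summed TMM effective library size, the WT to GFI1-KO ratio was 23.5 (95% exact interval 7.68 to 117, counting error only).

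NEUROD1, also a proneural factor, had means of 5905 ± 97.8 and 4476 ± 116 (SD, n = 3 each) and a log2 fold change of -0.40 (adjusted p = 2.7e-11, edgeR), which was -0.06 and not called with the correction. INSM1, a zinc finger factor needed for endocrine differentiation, had -0.08 (adjusted p = 0.037, edgeR), and -0.81 with the correction. Without the correction, the call of INSM1 was lost with no filter (-0.07) and without GFI1-KO replicate 2 or 3 or WT replicate 1 or 2 (-0.05, -0.10, -0.09 and -0.06). POU3F2 had -3.06, NKX2-2 had -2.90, ST18 had -2.17, PROX1 had -1.54 and FOXA1 had -0.70, all called lower in both fits. Lower too were MYT1L at -0.54, which was -0.36 with the correction, SRRM4, a neural splicing factor, at -0.36 and MYT1 at -0.17, which was -0.38 with the correction, whereas NEUROD4 at -0.35 was 0.04 and not called with it. REST, the repressor of neuronal genes in cells that are not neuronal, was higher, 186 ± 25.3 against 269 ± 8.26 (SD, n = 3 each), with a log2 fold change of 0.53 (SE 0.10, adjusted p = 4.7e-05, edgeR) that was 1.03 with the correction. ISL1 at 1.71, INSM2 at 0.97 and NEUROD2 at 0.74 were higher in both fits, with INSM2 at 0.47 and NEUROD2 at 0.23 after the correction. ISL1 was near the floor, with 12, 3 and 2 counts in the WT-labelled libraries against 24, 23 and 16. Its SE was 0.46, and its log2 fold change ran from 1.30 to 2.82 with each library left out in turn. FOXA2 at 0.37 and NKX2-1 at 0.40 were called lower with it, at -0.21 and -0.23.

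The neighbours of the genes on the chromosome were compared to see whether whole neighbourhoods moved. The 8 tested genes had 16 nearest tested protein-coding neighbours, 12 of which were called (75%, beside 72.4% of all tested genes), 8 in the direction of the granule gene and 4 against it. With the correction 8 were called, beside 60.8% of all genes, and 5 of the 8 were called in the same direction as without it. The directions relative to the granule gene are those without the correction. With it CHGA, PCSK1 and CPE had no call to compare with. KCNE4, DMXL2 and NAT16 were then called in the direction of their granule gene, and LYSMD2 and AP1S1 against it. KCNE4, a potassium channel subunit gene 398.5 kb from SCG2, had a log2 fold change of 1.87 (SE 0.05, adjusted p = 1.3e-20, edgeR), while AP1S3 on the other side had -0.25, which was 0.17 and not called with the correction. DMXL2, which encodes a vesicle protein and lies 58.5 kb from SCG3, had -0.67 (SE 0.04, adjusted p = 1.9e-14, edgeR), or -0.21 with the correction. AP1S1, an adaptor subunit gene 0.913 kb from VGF, had 0.84 (SE 0.05, adjusted p = 9.1e-15, edgeR), or 0.43 with the correction. ITPK1, 1.62 kb from CHGA, had 0.40. CAST and ELL2, 91.1 and 428 kb from PCSK1, had -0.35 and -0.34. With the correction ITPK1 and CAST were not called, at -0.05 and 0.04, and ELL2 was called higher, at 0.19. MSMO1 and ANXA10 beside CPE had -0.77 and -1.03, or -0.31 and -0.71 with the correction. TRMT6 beside CHGB had -0.25, against the direction of CHGB, although with the correction TRMT6 was 0.08 and not called. GOLGA5 beside CHGA had -0.28, also against its neighbour, and was -0.06 and not called with the correction. SHLD1 beside CHGB and FMN1 beside SCG5 were called in neither fit, whereas LYSMD2 beside SCG3 and NAT16 beside VGF were called only with the correction, at 0.25 and -0.64. For the untested genes, SNRPB2, 484 kb from PCSK2, had -0.13, which was 0.35 with the correction, and BFSP1 on the other side of PCSK2 was not called. CYP2R1, 74.4 kb from CALCA, had -0.54, which was -0.16 and not called with the correction.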

How the data were processed

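RNA-Seq of H1155 cells was analysed, 3 libraries labelled WT and 3 labelled GFI1-KO. The authors deposited raw counts per gene, without normalization, with each gene's position and length as other values of their annotation. The paper's methods name Hisat2 and featureCounts, and the submitters' processing notes name Bowtie2, HTSeq and hg38. Gene annotation and strand setting are not given in the sources used here.

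Genes were tested with edgeR 4.0.16 in R 4.3.3 (TMM factors, filterByExpr, quasi-likelihood F test, Benjamini-Hochberg adjustment over all tested genes, adjusted p of at most 0.05), and DESeq2 1.42.0 was an alternative. SE was taken as the absolute log2 fold change over the root of F. FPKM was computed from counts, deposited gene lengths and library totals of 14882914 to 17692882. A count of 3 was the floor, and intervals and floors cover counting error only. The GC and length correction used per-library offsets from natural splines (5 degrees of freedom). GC content came from the longest GENCODE transcript of a gene, and 99.4% of tested genes had one. Promoter windows came from RefSeq.

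Members and lists were chosen with earlier results of these data known. By rule, the text names GFI1, all members, the 2 highest and 2 lowest called genes with a mean of at least 100 normalized counts of each related list, all tested transcription factors but 1 that is not reported here, all tested calcitonin receptor genes, CALCB, PCSK1N, and the nearest tested protein-coding genes. Other alternatives were median-of-ratios factors, library size alone, no filter, at least 10 counts in every library, an adjusted p of at most 0.01, the replicate number as a block, and each library left out in turn. Replicate numbers did not pair the libraries: deviations of same-numbered libraries correlated at -0.00337 to 0.0230. The fits were tested on simulated data, with and without a GC trend.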

Additional observations from a re-analysis of the deposited data

How the results depend on the processing

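The GC and length correction moved the most results, alone and with the replicate block alike. It left 3 granule genes called higher, and the median log2 fold change of the 8 tested granule genes became -0.0061 under both, against 0.53. The sign of the log2 fold change turned for CHGA (-0.016, and -0.014 with the block), VGF (-0.44), PCSK1 (0.00011, and 0.00022 with the block), CPD (0.078, and 0.077 with the block), RAMP2 (-0.52), NKX2-1 (-0.23), FOXA2 (-0.21, and -0.20 with the block), NEUROD4 (0.036), CREB1 (0.50), PCSK1N (-0.10), ITPK1 (-0.047, and -0.046 with the block), TRMT6 (0.078, and 0.079 with the block), AP1S3 (0.17), NAT16 (-0.64, and -0.65 with the block), ELL2 (0.19), CAST (0.040), SNRPB2 (0.35) and ARHGAP11A (0.058). The cause was not tested. With no filter the median was 0.19, since CALCA and PCSK2 entered it.

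Leaving out each library in turn gave a median of 0.46 to 0.57. Called genes over all alternatives numbered 10487 to 13258, and the granule genes called lower 2 to 3. The block removed the call of CPE (adjusted p = 0.052) and that of no other named gene. The correlations of deviations between differently numbered libraries, -0.0516 to 0.0422, spanned those of same-numbered ones, so the block adds no known pairing. Median-of-ratios factors and library size alone changed no call of a named gene. Depth limits CALCA and PCSK2, and 3 libraries a group limit every test.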
